A study of Mus musculus with 12 samples.

Results

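The genes described here are 10 immediate early response genes: Egr1, Fos, Fosb, Jun, Junb, Jund, Ier2, Ier3, Atf3 and Dusp1. They were chosen by gene symbol, and 12 of the 45101 probe sets on the arrays carry one of these symbols alone. All 10 genes had a probe set, out of 18193 genes with one, and 7 of the 10 were bright enough to test, among 10759 genes tested in all. The cells were G1ME, a Gata1-negative mouse line of megakaryocyte-erythroid progenitors, so all groups share the missing endogenous GATA1. Cells were transduced either with GATA1 in the MIGR1-GFP retroviral vector or with the MIGR1-GFP control vector, and GFP-positive cells were sorted 18 h or 42 h later. There were thus 4 groups of 3 arrays, lettered A, B and C: cells with the GATA1 construct and with the control vector, each at 18 h and at 42 h. The labels do not name the promoter that drives GATA1 or the level of the protein, and the groups come from a single line.

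Immediate early genes are transcribed within minutes of a growth factor, cytokine or stress signal, without new protein synthesis. The signal reaches them mainly through MAP kinases, which act on factors such as SRF with its ternary complex partners and CREB. Many of the products are transcription factors, among them EGR1 and the Fos, Jun and ATF proteins that pair to form AP-1, while others such as DUSP1 shut the signal off. In blood progenitors these genes respond to cytokine receptors and have been studied as regulators of myeloid and megakaryocyte fate.

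In GATA1-labelled cells Egr1 was higher at 18 h and not detectably different at 42 h, and Dusp1 was higher at 42 h. Ier3 passed as lower at both times (call lost in 8 of 22 alternatives at 18 h and 1 of 22 at 42 h). Jund and Ier2 passed the test as lower at 42 h. Jun passed as lower at both times in its brighter probe set, close to the threshold at 18 h (call lost in 17 of 22 alternatives), while its dimmer probe set passed at neither time. Junb passed no test. Fos, Fosb and Atf3 lay at the bottom of the intensity scale on every array.

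Promoters are shown for Dusp1, the gene that rose at 42 h, and Jun, one of those called lower. Among the 5 tested genes that had a promoter window, these were the ones with a match to a searched motif in the 250 bases before the transcription start. The windows are from RefSeq on build GRCm38.p6, which held one for 8 of the 10 genes (not Egr1 and Ier2). Each is written 5′ to 3′ on the gene's strand, ending at the base before the start, and capitals mark the motif matches. The Dusp1 window lies at chr17:26508473-26508722 on the minus strand and the Jun window at chr4:95052223-95052472 on the minus strand.

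Dusp1: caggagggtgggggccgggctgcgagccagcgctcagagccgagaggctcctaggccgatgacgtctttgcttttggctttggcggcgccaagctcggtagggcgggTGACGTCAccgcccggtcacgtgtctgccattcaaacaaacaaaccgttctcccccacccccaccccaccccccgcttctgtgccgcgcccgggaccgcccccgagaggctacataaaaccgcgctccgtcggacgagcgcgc

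Jun: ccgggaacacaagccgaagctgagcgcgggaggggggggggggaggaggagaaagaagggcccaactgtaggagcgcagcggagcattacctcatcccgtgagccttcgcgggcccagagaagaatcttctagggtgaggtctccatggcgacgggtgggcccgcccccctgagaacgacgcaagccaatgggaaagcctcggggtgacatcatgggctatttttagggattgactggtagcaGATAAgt

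The motifs searched on both strands were TGACGTCA (the cyclic AMP response element, CRE), TGACTCA (the AP-1 site), GATAA (a core of the GATA site), GCGTGGGCG (the EGR site) and the CArG box of SRF. Dusp1 holds the CRE between 143 and 136 bases before its start, and the match reads the same on both strands. Jun holds GATAA between 7 and 3 bases before its start. The Atf3 window holds GATAA between 194 and 190 bases before the start, and the windows of Fos, Fosb, Junb, Jund and Ier3 hold none of these letters. Of all 32851 windows of that length, 1.55% hold the CRE, 4.46% the AP-1 site, 22.6% GATAA, 0.536% the EGR site and 1.47% the CArG box. These matches describe the letters in one window and show neither binding nor its absence.

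Levels below are the deposited linear intensities, in the order of replicates A, B and C, and means are given with the SD over 3 arrays. A change is a difference of mean log2(intensity + 16), given with its SE, and adjusted p-values are from limma over all 10759 genes, with a threshold of 0.05. On this scale the changes of dim genes are understated. Array medians lay between 8.05 and 8.29, and precision is limited by having 3 arrays in a group. GATA1 42 h replicate A stood apart in RNA controls: its log2 ratio of 3′ to 5′ beta-actin probe sets was 0.80, against 0.38 to 0.55 on the other arrays, and its 18S ribosomal RNA probe set read 12.4, against 4.79 to 10.6 (log2). The single Gata1 probe set read 2257 to 2435 in GATA1-labelled and 2815 to 3329 in vector-labelled cells at 18 h, and 1714 to 2418 against 3053 to 3268 at 42 h. Vector-labelled cells of a Gata1-negative line therefore gave a high reading, and the probe set is no check of the labels: whether it covers the disrupted part of the gene, or any sequence in the construct, is not stated here. All directions below rest on the labels.

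Of the 7 tested genes, 1 was higher and 2 were lower in GATA1-labelled than in vector-labelled cells at 18 h, against 1.85% of all genes tested in either direction (1.11% higher and 0.744% lower). At 42 h 1 was higher and 4 were lower, against 20.9% of all genes (10.3% higher and 10.6% lower). The median change of the 7 was -0.55 at 18 h and -0.58 at 42 h, against -0.01 and 0.001 over all genes. All 7 exceeded the median of their array on all 12 arrays, so no gene entered through the filter because of the group in which it was high.

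**Figure D1:**
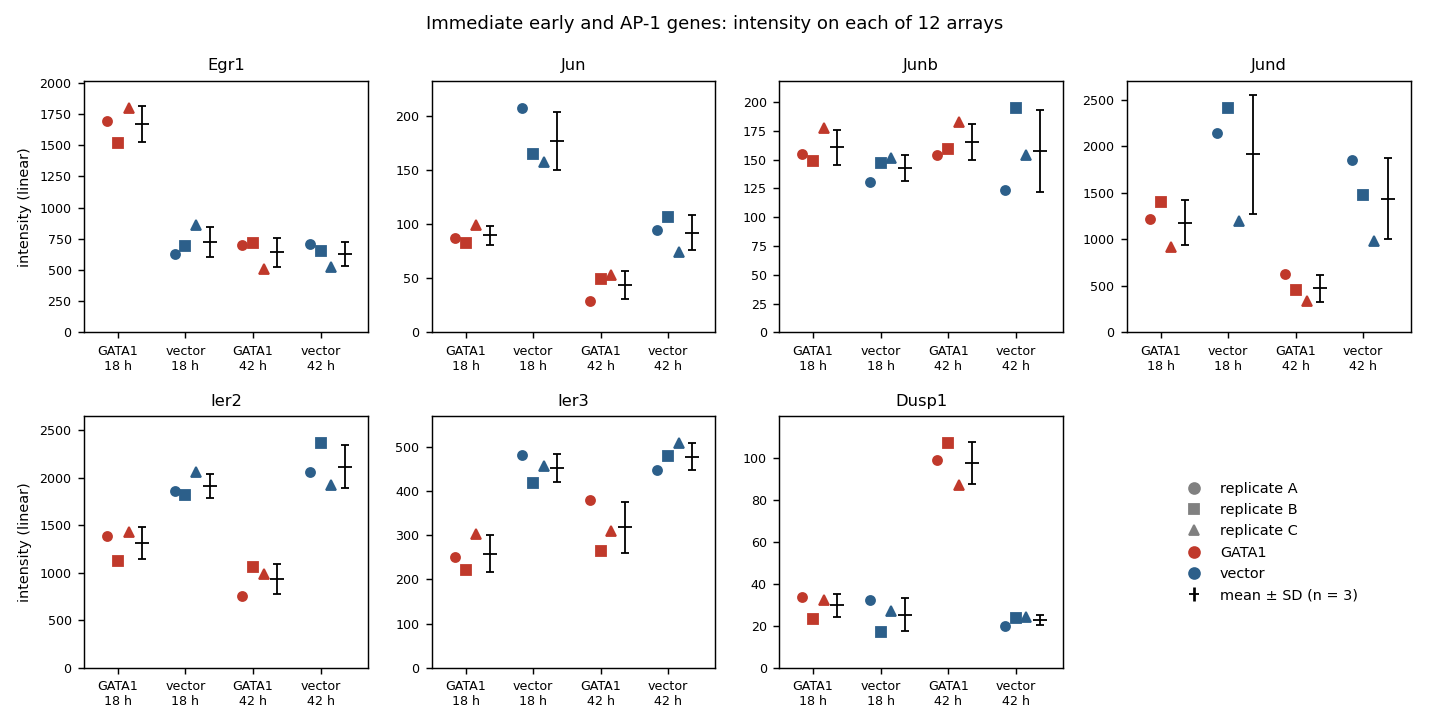
Linear intensity (y axis, from 0, a scale of its own in each panel) of the 7 tested genes on each of the 12 arrays, by group (x axis); marker shapes are replicate letters, red is GATA1 and blue is vector, and black marks are the mean ± SD of 3 arrays. Egr1 is high only in the GATA1 group at 18 h (1515 to 1798), and Dusp1 only in the GATA1 group at 42 h (86.9 to 107).

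Egr1 encodes a zinc finger transcription factor that is induced through ERK signalling and binds GC-rich sites. It read 1694, 1515 and 1798 in GATA1-labelled cells and 626, 691 and 862 in vector-labelled cells at 18 h. The 3 GATA1 arrays all lay above the 3 vector arrays, with no overlap. The means were 1669 ± 143 and 727 ± 122, a change of 1.19 ± 0.17 (2.28-fold, limma adjusted p = 0.0067). At 42 h Egr1 read 704, 714 and 508 in GATA1-labelled cells and 708, 651 and 524 in vector-labelled cells. Here the groups overlapped, with a difference of 0.03 ± 0.17 (adjusted p = 0.985) and a 95% interval of -0.35 to 0.40.

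Egr1 therefore differed between the times in GATA1-labelled cells, at 642 ± 116 at 42 h against 1669 ± 143 at 18 h (-1.37 ± 0.17, adjusted p = 6.45e-04). In vector-labelled cells it read 628 ± 94.4 at 42 h against 727 ± 122 at 18 h (-0.20 ± 0.17, adjusted p = 0.996), and these groups overlapped. The GATA1 effect at 42 h minus that at 18 h was -1.17 ± 0.24 (adjusted p = 0.0237), in a test that called 4.66% of all genes (2.29% above 0 and 2.37% below) and, of the 7, Egr1 below and Dusp1 above. The order of the means was GATA1 at 18 h, vector at 18 h, GATA1 at 42 h and vector at 42 h, and only the first stood clear of its neighbour. The difference between the effects missed the threshold without any one of GATA1 18 h replicate A (adjusted p = 0.0508), GATA1 18 h replicate C (0.0659), vector 18 h replicate A (0.0542), vector 18 h replicate B (0.0623), vector 42 h replicate A (0.0606) or vector 42 h replicate B (0.0599), with a range of 0.0192 to 0.0659 over the 12 arrays left out in turn. Egr1 also missed it in this test with no filter (0.0606) and without the 4 arrays lettered A (0.183). The rise at 18 h passed without each array in turn, and missed the threshold without the 4 arrays lettered A (1.08 ± 0.21, adjusted p = 0.158).

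Dusp1 encodes a nuclear phosphatase that inactivates p38, JNK and ERK and is itself an immediate early gene. It read 98.9, 107 and 86.9 in GATA1-labelled cells and 19.9, 23.9 and 24.1 in vector-labelled cells at 42 h. All 3 GATA1 arrays were far above the vector arrays. The means of 97.5 ± 10.04 and 22.6 ± 2.38 differed by 1.55 ± 0.14 (adjusted p = 5.84e-05), and their plain ratio was 4.31. Because Dusp1 was dim in vector-labelled cells, the size depends on the pseudocount: the change was 2.06 with a pseudocount of 1 and 0.90 with 64, past the threshold in both. At 18 h Dusp1 read 33.6, 23.2 and 32.3 in GATA1-labelled cells and 32.1, 16.9 and 27.0 in vector-labelled cells. These groups overlapped (0.15 ± 0.14, adjusted p = 0.9999), with a 95% interval of -0.17 to 0.48.

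The GATA1 effect on Dusp1 was larger at 42 h than at 18 h, by 1.40 ± 0.20 (adjusted p = 0.0047). Within GATA1-labelled cells Dusp1 was higher at 42 h than at 18 h, by 1.32 ± 0.14 (adjusted p = 3.20e-04), while in vector-labelled cells the difference was -0.08 ± 0.14 (adjusted p = 0.996). No single array decided these calls, and the difference between the effects missed the threshold only without the 4 arrays lettered A (1.28 ± 0.24, adjusted p = 0.0698). Dusp1 could not be tested under the filter that asks for an intensity over 100 on 3 arrays. Dusp1 and Egr1 thus rose at different times in GATA1-labelled cells, and each overlapped vector-labelled cells at the time when the other was high.

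**Figure D2:**
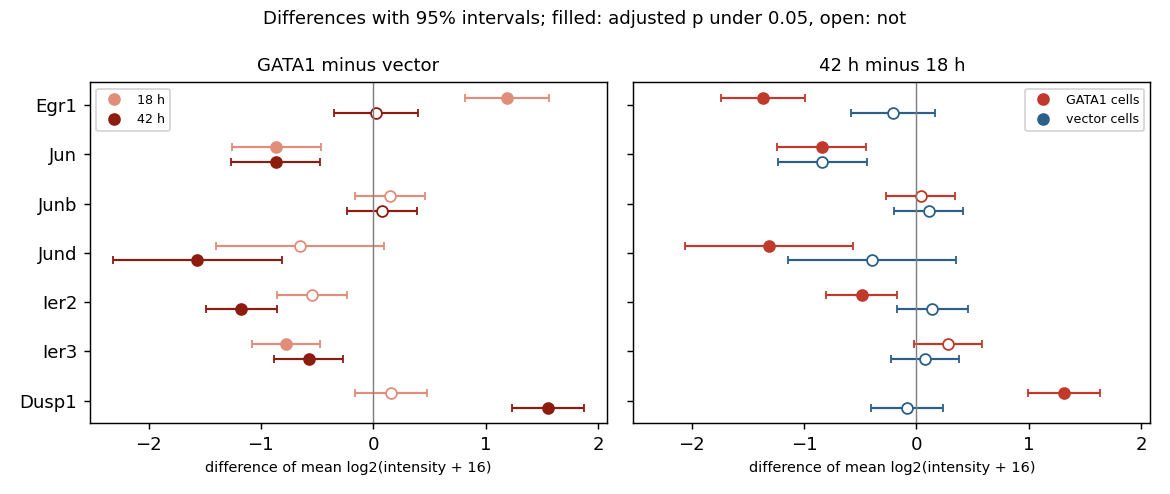
Difference of mean log2(intensity + 16) (x axis) for each tested gene (y axis), for GATA1 minus vector at 18 h and 42 h (left) and for 42 h minus 18 h in GATA1 and in vector cells (right); bars are 95% intervals and filled points have an adjusted p under 0.05. The intervals for Egr1 lie above 0 at 18 h and across it at 42 h, while Jund and Ier2 lie further below 0 at 42 h.

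The Jun proteins are the AP-1 subunits that bind DNA either with each other or with a Fos protein. Jun, a growth-promoting subunit and JNK target, read 86.8, 82.0 and 99.4 in GATA1-labelled cells and 207, 164 and 157 in vector-labelled cells at 18 h. The groups did not overlap, and the change was -0.86 ± 0.18 (adjusted p = 0.0448). At 42 h Jun read 28.8, 49.7 and 52.6 in GATA1-labelled cells and 94.6, 106 and 74.5 in vector-labelled cells, again without overlap (-0.87 ± 0.18, adjusted p = 0.0069). The effects at the 2 times differed by -0.01 ± 0.25 (adjusted p = 0.996), with a 95% interval of -0.57 to 0.56.

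Between the times Jun moved in the same direction in both populations, but passed the test in GATA1-labelled cells alone. In GATA1-labelled cells the means were 43.7 ± 13.0 at 42 h and 89.4 ± 8.99 at 18 h (-0.84 ± 0.18, adjusted p = 0.0118). The dimmer Jun probe set gave -0.08 ± 0.11 here (adjusted p = 0.767), and without the 4 arrays lettered A the brighter one missed the threshold (adjusted p = 0.0513). In vector-labelled cells they were 91.8 ± 16.1 at 42 h and 176 ± 26.8 at 18 h, without overlap and with a similar difference of -0.84 ± 0.18, which did not pass over all genes (unadjusted p = 9.56e-04, adjusted p = 0.271). That test called 0.0186% of all genes. The order of the means was vector at 18 h, vector at 42 h, GATA1 at 18 h and GATA1 at 42 h, and the middle pair overlapped.

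The call for Jun at 18 h was close to the threshold. With the replicate letter as a block its adjusted p was 0.0629, and with only the arrays compared 0.0720. It missed the threshold without each array in turn except GATA1 42 h replicate A (adjusted p = 0.0151 without it), with the highest value, 0.163, without vector 18 h replicate A. Jun has a second, dimmer probe set, which read 18.2, 14.8 and 18.1 in GATA1-labelled cells and 34.0, 22.6 and 22.4 in vector-labelled cells at 18 h. At 42 h this probe set read 15.6, 17.9 and 12.2 against 19.4, 14.4 and 15.2. Its groups stood apart at 18 h (-0.35 ± 0.11, adjusted p = 0.318) and overlapped at 42 h (-0.05 ± 0.11, adjusted p = 0.871). The call for Jun at 42 h therefore rests on the brighter probe set alone.

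**Figure D3:**
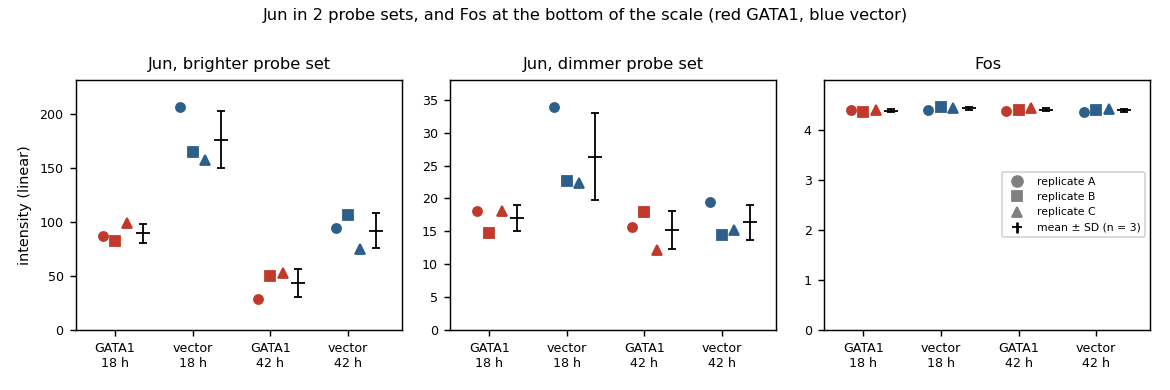
Linear intensity (y axis, from 0) by group (x axis) of the brighter and the dimmer Jun probe set and of Fos, with red for GATA1, blue for vector, marker shapes for replicate letters and black marks for the mean ± SD of 3 arrays. The dimmer Jun probe set overlaps between the groups at 42 h, and Fos lies between 4.35 and 4.46 on all 12 arrays.

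Jund, a Jun protein that is made at a steady level in most resting cells and can oppose Jun, read 626, 459 and 337 in GATA1-labelled cells and 1849, 1477 and 984 in vector-labelled cells at 42 h. The groups did not overlap, and the change was -1.56 ± 0.33 (0.338-fold, adjusted p = 0.0086). At 18 h Jund read 1223, 1396 and 919 in GATA1-labelled cells and 2140, 2412 and 1194 in vector-labelled cells, with overlap (-0.65 ± 0.33, adjusted p = 0.642). Replicate C was the lowest of its group in all 4 groups, so the letter accounted for much of the spread. With the replicate letter as a block the SE fell to 0.14, the difference at 18 h stayed short of the threshold (adjusted p = 0.0577), and the change at 42 h had an adjusted p of 1.56e-04. The GATA1 effect at 42 h minus that at 18 h was -0.91 ± 0.47 (adjusted p = 0.410), and with that block -0.91 ± 0.20 (adjusted p = 0.0336). The fall at 42 h missed the threshold without the 4 arrays lettered A (-1.58 ± 0.41, adjusted p = 0.0592). A second Jund probe set lay between 4.46 and 5.90 on all arrays, never above the array median, and could not be tested.

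Junb, a Jun protein that restrains myeloid proliferation in mice, read 155, 149 and 178 in GATA1-labelled cells and 130, 147 and 151 in vector-labelled cells at 18 h. At 42 h it read 154, 159 and 183 in GATA1-labelled cells and 123, 195 and 154 in vector-labelled cells. The groups overlapped at both times. The differences were 0.15 ± 0.14 (95% interval -0.16 to 0.46) and 0.08 ± 0.14 (-0.23 to 0.39), with adjusted p-values of 0.9999 and 0.796. Falls of the size seen for Jun thus lie outside the intervals of Junb, though the difference between these genes was not tested.

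The Fos proteins pair with Jun proteins and do not bind DNA as pairs of their own. Fos read between 4.35 and 4.46 and Fosb between 4.06 and 4.16 over all 12 arrays. Atf3, a stress-induced AP-1 partner of the ATF family, read between 4.80 and 6.41. None of the 3 probe sets exceeded the median of its array on any array, so they were not tested and no difference was detectable. The highest Atf3 value, 6.41, was on GATA1 18 h replicate C, and the other arrays of that group read 4.80 and 4.85.

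Ier2 and Ier3 are immediate early genes that encode small proteins. Ier2, a nuclear protein linked to cell motility, read 755, 1064 and 986 in GATA1-labelled cells and 2062, 2362 and 1919 in vector-labelled cells at 42 h. The groups lay far apart (-1.17 ± 0.14, 0.444-fold, adjusted p = 2.89e-04), and the call was kept under each of the 22 alternatives. At 18 h Ier2 read 1387, 1119 and 1425 in GATA1-labelled cells and 1865, 1814 and 2059 in vector-labelled cells. Here too the groups did not overlap, but the difference of -0.55 ± 0.14 did not pass (unadjusted p = 0.0033, adjusted p = 0.116). Without GATA1 42 h replicate A its adjusted p was 0.0488. The difference between the effects was -0.63 ± 0.20 (adjusted p = 0.136).

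Ier3, which modulates ERK signalling and cell survival, read 250, 222 and 303 in GATA1-labelled cells and 481, 419 and 457 in vector-labelled cells at 18 h. The change was -0.78 ± 0.14 (adjusted p = 0.0210). At 42 h it read 380, 265 and 310 in GATA1-labelled cells and 447, 479 and 508 in vector-labelled cells (-0.58 ± 0.14, adjusted p = 0.0143). The groups were apart at both times, and the effects differed by 0.20 ± 0.19 (adjusted p = 0.741). The call at 18 h was lost without GATA1 18 h replicate A (adjusted p = 0.0905), GATA1 18 h replicate B (0.0806), vector 18 h replicate A (0.0907), vector 18 h replicate B (0.0546) or vector 18 h replicate C (0.0617), with only the arrays compared (0.0852), with no filter (0.0570) and without the 4 arrays lettered A (-0.72, adjusted p = 0.185). The call at 42 h was lost without GATA1 42 h replicate B (0.0505).

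Between 42 h and 18 h in GATA1-labelled cells, 1 tested gene was higher (Dusp1) and 4 were lower (Egr1, Jun, Jund and Ier2), against 14.6% of all genes in either direction (6.72% higher and 7.91% lower). The change was -1.31 ± 0.33 for Jund (adjusted p = 0.0285) and -0.49 ± 0.14 for Ier2 (adjusted p = 0.0459). The Jund call was lost on leaving out GATA1 18 h replicate A (adjusted p = 0.0774), GATA1 18 h replicate B (0.0935), GATA1 42 h replicate B (0.0801) or GATA1 42 h replicate C (0.0909). It was also lost with no filter (0.0677) and without the 4 arrays lettered A (0.0814). The Ier2 call was lost in 16 of 22 alternatives, with the highest adjusted p, 0.301, without the 4 arrays lettered A. Leaving out any of 9 single arrays lost it, with up to 0.147 without GATA1 18 h replicate C. Ier3 differed by 0.28 ± 0.14 (adjusted p = 0.224) and Junb by 0.04 ± 0.14 (adjusted p = 0.962). In vector-labelled cells limma called 0 of the 7 tested genes between the times, against 0.0186% of all genes. Of the 7, 1, Jun, had an unadjusted p under 0.05, against 676 of all 10759 genes. These comparisons share their arrays with those of GATA1 against vector.

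The genes with the most similar pattern over the 12 arrays were ranked by Pearson's r, as a description of shared group differences and arrays. For Egr1 these were Diaph1 (r = 0.959), Muc13 (0.931) and Gucy1a1 (0.914). For Dusp1 they were Prdx2 (0.984), Ehd1 (0.976) and Mapk8 (0.972), the last being the gene of JNK1. For Jun they were Bbc3 (0.951), Sqstm1 (0.941) and Map4 (0.934), and for Jund Cxxc5 (0.977), Pde4d (0.975) and Plcg2 (0.974). Ier2 was nearest to Il4ra (0.945), Hmga2 (0.943) and Kit (0.938), Ier3 to Ly96 (0.920), Rtp4 (0.889) and Smad3 (0.887), and Junb to Bahcc1 (0.875), Psme3 (0.867) and Dazap1 (0.861).

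The rest of the AP-1 family was described from a list of 8 genes, of which 3 were bright enough to test. At 42 h 2 of these, Batf and Atf2, were lower in GATA1-labelled cells and the remaining one, Fosl2, did not pass (-0.61 ± 0.19, adjusted p = 0.0507), where 10.6% of all genes were lower. Batf, a partner of Jun in lymphoid and myeloid cells, averaged 182 ± 30.8 in GATA1-labelled and 360 ± 61.7 in vector-labelled cells (-0.92 ± 0.19, adjusted p = 0.0077). Atf2, a stress kinase target that can pair with Jun, averaged 1240 ± 133 and 1663 ± 57.2 (-0.42 ± 0.10, adjusted p = 0.0164), and missed the threshold on leaving out GATA1 42 h replicate B (0.0576) or GATA1 42 h replicate C (0.0586). The second brightest Atf2 probe set gave -0.43 ± 0.17 (adjusted p = 0.132). Limma called 0 of the 3 at 18 h, against 1.85% of all genes. An unadjusted p under 0.05 was found for 0 of the 3, against 1056 of all 10759 genes.

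Of 40 other immediate early genes, 27 were tested, and 1 rose and 6 fell at 42 h, with a median of -0.20, against 10.3% higher and 10.6% lower among all genes. Tiparp, a mono-ADP-ribosyltransferase, averaged 16.3 ± 2.43 in GATA1-labelled and 62.5 ± 6.97 in vector-labelled cells (-1.28 ± 0.17, adjusted p = 4.99e-04). Csrnp1, a nuclear protein induced by AXIN1 in human cells, averaged 25.8 ± 7.10 and 72.8 ± 4.41 (-1.10 ± 0.16, adjusted p = 9.23e-04). Klf10, a Kruppel-like factor induced by TGF-beta, fell by 0.80 ± 0.11 (-0.80, adjusted p = 6.48e-04). Zfp36l2, an mRNA decay factor, fell by 0.79 ± 0.12 (-0.79, adjusted p = 0.0014), but its second brightest probe set showed -0.31 ± 0.17 (adjusted p = 0.305). The other falls, named after their values were seen, were Nfkbia (-0.73 ± 0.17; adjusted p = 0.0508 without vector 42 h replicate A) and Dusp2 (-0.61 ± 0.14; adjusted p = 0.0668 with only the arrays compared). Gadd45a, a stress-induced growth arrest gene, averaged 513 ± 47.6 and 345 ± 17.1 (0.55 ± 0.13, adjusted p = 0.0148), and missed the threshold without the 4 arrays lettered A (0.0776).

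The growth regulator Myc averaged 2479 ± 303 in GATA1-labelled and 2517 ± 390 in vector-labelled cells at 42 h (-0.02 ± 0.23, adjusted p = 0.995), a gene likewise named after its values were seen. Limma called 0 of the 27 genes at 18 h, against 1.85% of all genes. An unadjusted p under 0.05 was found for 6 of the 27, against 1056 of all 10759 genes. The 18 h counts changed in some alternatives: 1 fell in 4 of 22, the replicate block among them, and 1 rose with no filter. At 42 h the rises became 2 or 3 in 9 of 22 alternatives, with 3 under the replicate block. That block called 3053 of all genes at 42 h, against 2251 in the main fit. Btg2, also named after its values were seen, averaged 220 ± 114 in GATA1-labelled and 54.2 ± 13.5 in vector-labelled cells at 42 h. It had the largest difference of the 27 there but did not pass (1.66 ± 0.53, adjusted p = 0.0546).

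Among 10 tested genes of upstream factors and EGR corepressors, Elk3 fell at 18 h and Elk3 and Crem fell at 42 h, against 0.744% and 10.6% of all genes lower. None rose as tested, while with the replicate letter as a block 1 rose and 4 fell at 42 h. That block also called more of all genes at 42 h, 3053 against 2251. Array weights gave 1 rise there, as did leaving out vector 18 h replicate B, vector 18 h replicate C or vector 42 h replicate A. Elk3, a ternary complex factor that represses SRF targets until ERK acts on it, averaged 214 ± 20.7 in GATA1-labelled and 367 ± 38.8 in vector-labelled cells at 18 h (-0.74 ± 0.09, adjusted p = 0.0036). At 42 h it averaged 77.2 ± 2.94 and 308 ± 25.3 (-1.80 ± 0.09, adjusted p = 1.37e-06), a larger effect than at 18 h by -1.06 ± 0.13 (adjusted p = 0.0020). In its second brightest probe set the change was -0.14 ± 0.10 at 18 h (adjusted p = 0.9998) and -0.34 ± 0.10 at 42 h (adjusted p = 0.0476), and the difference between the effects was -0.20 ± 0.14 (adjusted p = 0.657). The Elk3 call at 18 h was also lost with only the arrays compared (adjusted p = 0.0724) and without the 4 arrays lettered A (0.123). Crem, a CREB-related factor that binds the CRE, averaged 272 ± 49.2 and 588 ± 33.2 at 42 h (-1.09 ± 0.18, adjusted p = 0.0019).

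In the MAP kinase cascade 9 genes were tested, of which 2 rose and 1 fell at 42 h, against 10.3% higher and 10.6% lower among all genes. Leaving out GATA1 42 h replicate A gave 2 falls. Mapk8 (JNK1) averaged 88.9 ± 2.32 in GATA1-labelled and 55.9 ± 2.74 in vector-labelled cells at 42 h (0.55 ± 0.04, adjusted p = 8.66e-06). Its effect at 18 h was -0.01 ± 0.04, and the difference between the effects was 0.56 ± 0.05 (adjusted p = 3.48e-04). Its second brightest probe set showed a change of 0.28 ± 0.20 at 42 h (adjusted p = 0.432), and there the difference between the effects was -0.06 (adjusted p = 0.970). Mapk9 (JNK2) averaged 1037 ± 96.3 and 811 ± 57.7 (0.35 ± 0.07, adjusted p = 0.0068). Mapk9 missed the threshold in its second brightest probe set (0.23 ± 0.08, adjusted p = 0.0971) and with only the arrays compared (adjusted p = 0.0619). Rps6ka3, the ERK-activated kinase RSK2, averaged 623 ± 17.6 and 1263 ± 118 at 42 h (-0.997 ± 0.09, adjusted p = 4.45e-05), and its effect at 42 h minus that at 18 h was -0.91 ± 0.12 (adjusted p = 0.0033). In the second brightest Rps6ka3 probe set this difference was -0.69 ± 0.16 and missed the threshold (adjusted p = 0.0573). Limma called 0 of the 9 at 18 h, against 1.85% of all genes. An unadjusted p under 0.05 was found for 0 of the 9, against 1056 of all 10759 genes.

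**Figure D4:**
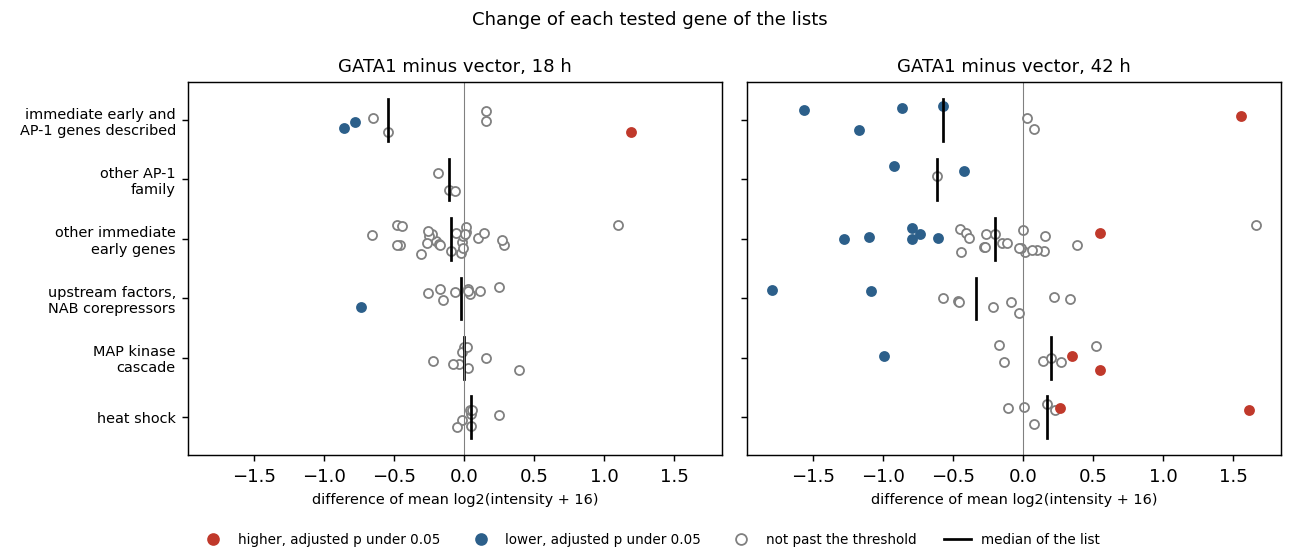
Difference of mean log2(intensity + 16), GATA1 minus vector (x axis), at 18 h (left) and 42 h (right) for each tested gene of 6 lists (y axis; vertical scatter within a row has no meaning), with filled points for an adjusted p under 0.05, red higher and blue lower, and a black bar at the median of each list. At 18 h the filled points are Egr1, Jun, Ier3 and Elk3 and no others, and at 42 h most filled points lie below 0.

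Heat shock genes, which also respond to cell handling, were not called at 18 h (0 of 7 by limma, against 1.85% of all genes). An unadjusted p under 0.05 was found for 0 of the 7, against 1056 of all 10759 genes. At 42 h 2 of 7 were higher, against 10.3% of all genes. Hspa1b averaged 85.3 ± 49.0 in GATA1-labelled and 14.9 ± 1.63 in vector-labelled cells (1.61 ± 0.26, adjusted p = 0.0018), and Hspe1 17106 ± 616 and 14247 ± 730 (0.26 ± 0.05, adjusted p = 0.0028; 0.0687 without the 4 arrays lettered A). The other 5 tested did not pass at 42 h. The summed intensity of the 9 heat shock genes was 112282 to 121221 in GATA1-labelled and 103639 to 111806 in vector-labelled cells at 42 h. In GATA1-labelled cells at 18 h it was 105328 to 113959, overlapping that at 42 h. Hspa1b and Hspe1 were thus higher in the group where Dusp1 was high. Hspa1b was highest on replicate A, the array that stood apart in RNA controls. The part of these genes in the Dusp1 change was not tested.

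Markers of cell types moved with the groups as well. Erythroid markers summed to 3858 to 5637 in GATA1-labelled and 372 to 1527 in vector-labelled cells at 18 h. At 42 h they summed to 32448 to 38402 against 425 to 956. There all 5 tested of 5 measured were higher, against 10.3% of all genes. At 18 h 3 erythroid markers were higher, where 1.11% of all genes were higher and 0.744% lower. Megakaryocyte markers then summed to 20229 to 25360 in GATA1-labelled and 13604 to 15982 in vector-labelled cells (2 higher), and progenitor markers to 14141 to 16571 against 12104 to 14831 (1 lower). At 18 h mast cell markers summed to 790 to 923 against 1483 to 2190, with 0 of 2 tested called. Neutrophil and macrophage markers summed to 758 to 942 against 2123 to 2528 (1 lower), and lymphocyte markers to 27.6 to 28.5 against 27.9 to 30.7.

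At 42 h megakaryocyte markers summed to 30624 to 39071 against 14212 to 15349, with 4 of 6 higher and 1 lower. Among all genes 10.3% were higher and 10.6% lower at that time. Mast cell markers summed to 67.3 to 102 against 1553 to 2624, with 1 of 2 tested lower, and Ms4a2, Fcer1a, Mcpt8 and Tpsb2 below the array median in all but at most 2 arrays. Neutrophil and macrophage markers summed to 81.4 to 106 against 1796 to 2143, with 2 of 3 tested lower, and Elane, S100a8, S100a9 and Itgam likewise dim. Progenitor markers summed to 9072 to 12221 against 13203 to 16521, with 3 of 5 tested lower and Cd34 dim, and lymphocyte markers to 27.0 to 29.5 against 27.2 to 28.5, with Cd3e, Cd3g and Cd79a dim. In these sorted populations fewer cells of a type and less RNA per cell cannot be told apart, and the part of these shifts in the changes of Egr1, Jun, Jund, Ier2, Ier3 and Dusp1 was not tested.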

How the data were processed

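RNA of 12 samples was measured on Affymetrix arrays. The deposited values are linear intensities, 1 per probe set and array. Per the submitters' processing notes the authors used GCRMA and MAS5; which of these gave the intensity values, the scaling between arrays and any genome build are not given in the sources used here. Depth has no meaning for arrays; the number of arrays limits precision.

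Probe sets were named through the platform annotation: 34945 have 1 gene symbol, 932 several and 9160 none, with 64 controls left unnamed. Array medians and quantile normalization were taken over all 45101 probe sets, controls included. Of the named ones 34741 matched RefSeq (GRCm38.p6), which changed 0 symbols. At most 0.0266% of values were identical on a pair of arrays, so none was taken for a repeat.

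The deposited intensity was analysed as log2(intensity + 16). The brightest probe set stood for a gene, tested where at least 3 of the 12 arrays had it above their median. limma 3.58.1 in R 4.3.3 (lmFit, eBayes, two-sided, Benjamini-Hochberg) was fitted over all 12 arrays in 4 groups and was tested on simulated data. Nothing in the labels says that replicates came from separate cultures, so p-values measure the spread between these arrays, which may be technical. The genes, lists and rules were chosen with earlier results of these data known. Named genes are the 10 members, the 3 genes most like each, and per list up to 4 rises and 4 falls past the threshold.

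Deviations from group means correlated between same-lettered arrays of GATA1 and vector at 0.312 to 0.657 at 18 h and 0.246 to 0.605 at 42 h. Letters were therefore taken to pair these samples, as a reading of the data and not of the labels. The main fit was unpaired, and all values are from it unless a setting is named. The pairing enters only through the alternative with the replicate block. Between GATA1 arrays at 42 h and 18 h the lowest was 0.0505, so those were not paired. Alternatives were 2 pseudocounts, 2 filters, quantile normalization, only the arrays compared, the replicate block, array weights, the second brightest probe set (the brightest where a gene has only 1), no arrays lettered A, and each array left out.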

Additional observations from a re-analysis of the deposited data

Results flagged for a closer look

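The GATA1 effect differed between 42 h and 18 h, by limma's interaction test, for 5 of the genes described or listed, in a test that called 501 genes in all (4.66%). For Egr1 the effect at 42 h minus that at 18 h was -1.17 (adjusted p = 0.0237), since it was higher in GATA1-labelled cells at 18 h and not detectably different at 42 h. For Dusp1 it was 1.40 (adjusted p = 0.0047), with a rise at 42 h. Elk3 (-1.06, adjusted p = 0.0020) and Rps6ka3 (-0.91, adjusted p = 0.0033) were further below vector at 42 h, though in their second brightest probe sets the difference was -0.20 (adjusted p = 0.657) for Elk3 and -0.69 (adjusted p = 0.0573) for Rps6ka3. Mapk8 (0.56, adjusted p = 3.48e-04) was above vector at 42 h, with -0.0576 in its second brightest probe set (adjusted p = 0.970). With 3 arrays in a group, single arrays were not tested as outliers.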

How the results depend on the processing

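Of the 7 tested genes, 0 changed direction with a call under the alternatives run: 22 (12 of them leaving out 1 array), or 21 for Dusp1 and Jund. Fos, Fosb and Atf3 were not tested. Of 760 values (7 tested genes, 5 comparisons), 671 kept direction and side of the threshold, 62 lost a call, 2 gained one, and 25 changed sign without a call. Some of the values that were kept could hardly change. For a gene with 1 probe set, the second-probe-set setting refitted the same one. For the difference between the effects, the arrays compared are all 12, as in the main fit. Leaving out an array of a group not compared leaves the change itself as it was. At 18 h the count of 1 higher became 0 without the 4 arrays lettered A, and the 2 lower became 0 there, 0 with no filter (more genes tested), 0 with only the arrays compared, 1 with a pseudocount of 1, 1 with the replicate block and 1 with the second brightest probe set; leaving out 1 array gave 0 to 3. At 42 h the 4 lower became 2 with the second brightest probe set, in which Jund is not tested, and leaving out 1 array gave 3 to 4. For GATA1 cells between the times the 4 lower became 2 with no filter, 1 with the second brightest probe set and 1 without the arrays lettered A, with 2 to 4 on leaving out 1 array. For the difference between the effects the 1 lower became 0 with no filter, 2 with the replicate block and 0 without the arrays lettered A, with 0 to 1 on leaving out 1 array, and the 1 higher became 0 without the arrays lettered A. Each count of 1 higher at 42 h, over time in GATA1 cells and for the difference became 0 with the filter at an intensity over 100, which leaves out Dusp1. Beyond the alternatives' own construction, the cause was not tested. For the 7 tested genes the replicate block changed no other call of GATA1 against vector or of the difference between the effects. Over time in GATA1 cells Ier2 lost its call with that block (adjusted p = 0.0524). In the second brightest probe set of Mapk8 the difference between the effects was -0.0576, against 0.56.

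Over all alternatives the count of all genes called was 34 to 358 at 18 h (199 as reported), 1560 to 3053 at 42 h (2251), 259 to 846 for the difference (501), 1021 to 2929 for GATA1 cells over time (1574) and 0 to 41 for vector cells over time (2). With the replicate block these were 358 at 18 h, 846 for the difference and 41 for vector cells over time. Low signal limits Fos, Fosb and Atf3, and the second probe sets of Jun and Jund.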
